A study of Mus musculus with 4 samples.

Results

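Axon guidance ligands and receptors were followed in RNA-seq of sorted cells from the regenerated mouse olfactory epithelium. Members were chosen by gene symbol, as semaphorins of classes 3 to 7, plexins, neuropilins, Robo receptors and Slit ligands, Eph receptors and ephrins, netrins with Dcc and the Unc5 receptors, and Kirrel proteins. The symbol pattern uses no measured value, but it was chosen with earlier results of these data known, and took 74 of the 23337 gene symbols in the count files. Each of the 4 samples came from a single mouse. Controls were Lmnb1+/- cells (K5Cre;Lmnb1 fl/+) and mutants were Lmnb1-/- cells (K5Cre;Lmnb1 fl/fl), with 2 mice per genotype. All 4 mice carried K5Cre, in which the keratin 5 promoter drives Cre recombinase in horizontal basal cells, the reserve stem cells of the epithelium, and the R26 Ai9 reporter, which turns on the red fluorescent protein tdTomato after recombination. Each mouse was given 2 injections of methimazole at 50 mg/kg each, which strips the epithelium, and was left to regenerate it for 4 weeks. Tomato-positive cells (horizontal basal cells and their progeny) were then collected. The controls had therefore also lost 1 copy of Lmnb1 by Cre and regenerated after the same injury, and the study's staining found that some Tomato-positive cells of mutant tissue still carried lamin B1. The mice were on a mixed genetic background, with K5Cre and Lmnb1 fl mice backcrossed to B6. The study's methods give an age of 2 to 3 months at injection, and no age is given per sample. A control and a mutant that shared parents, sex, age, treatment and sequencing formed each of 2 experimental groups, and samples are named by genotype and experimental group. Where values of both samples of a genotype are given together, experimental group 1 comes first.

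Guidance molecules steer growing axons by attraction, repulsion and contact. Semaphorins are read by plexins, the secreted class 3 members mostly through neuropilin co-receptors, Slits are read by Robo receptors, netrins by Dcc and Unc5 receptors, and ephrins by Eph receptors on touching cells. In the olfactory system these molecules order sensory axons along the axes of the olfactory bulb, and Kirrel proteins, which are homophilic adhesion molecules of the immunoglobulin superfamily, help axons with the same odorant receptor to gather into glomeruli.

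Values are read counts per gene. CPM is the count of a gene per 1000000 counts assigned to genes in that sample. Totals ran from 14833396 counts in mutant 2 to 23704638 in control 1, so that 3 counts, the smallest number taken as detected, equal 0.127 to 0.202 CPM, which covers counting error only. Guidance genes together made up 5650 and 4547 CPM in controls and 4970 and 3961 CPM in mutants. Mutant 1 stood apart from the other samples, with reads outside annotated genes at 39.4% of uniquely aligned reads against 22.1 to 24.9%, and with no guidance gene at 0 counts against 3 to 5 in the others. Lmnb1 itself, whose deposited count sums over all exons although only exon 2 is floxed, stood at 20.1 and 18.5 CPM in controls 1 and 2 and at 14.7 and 10.04 CPM in mutants 1 and 2, so that both mutants were below both controls. The study's PCR on cDNA of sorted cells, with primers outside the floxed exon, found the Lmnb1 transcript depleted in mutant cells. The source of the counts left in mutants was not tested. Mature neuron markers were the marker list that moved most with genotype, as all 10 listed genes (Omp, Adcy3, Gnal and others) were lower in mutants. Their summed level was 7517 to 17137 CPM in controls and 2208 to 10078 CPM in mutants. In sorted bulk RNA, fewer cells of a type and less RNA per cell cannot be told apart.

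Guidance genes that passed the test were mostly lower in Lmnb1-/- cells. Kirrel2, Kirrel3, Sema3e, Sema4d, Sema7a, Plxna3, Plxna4, Slit1, Efna3, Epha5 and Epha7 fell, and Ephb1 rose. Genes with more than 1 CPM in at least 2 samples were compared between genotypes in edgeR with a negative binomial model that kept experimental group as a block, with Benjamini-Hochberg adjustment over all 15438 tested genes and a threshold of 0.05. Of the 68 guidance genes tested, 11 were lower (16.2%), beside 4.3% of all tested genes, and 1 was higher (1.47%), beside 1.28%. The 11 lower genes had a median log2 fold change of -0.99, and their median log2 ratio of mutant to control was -0.65 within experimental group 1 and -1.30 within experimental group 2. Every one of the 11 fell further in experimental group 2. So did the summed mature neuron markers, with log2 ratios of -0.77 and -1.77 in groups 1 and 2. How many other lower genes did so was not counted. The guidance genes as a whole were not mainly lower, with 31 negative and 37 positive log2 fold changes. Their median was 0.05 beside -0.01 for all tested genes. Ratios were below 0 in both experimental groups for 25 of the 68 (32.9% of all tested genes) and above 0 in both for 27 (29.8%). Both mutants lay below both controls for 7 of the 11 lower genes, and mutant 1 overlapped control 2 for the other 4, Kirrel2, Kirrel3, Sema7a and Efna3. Among the 68, both mutants lay below both controls in 12 (10.6% of all tested genes) and above them in 12 (15.2%). On the same model, edgeR's quasi-likelihood test called 9 lower and 1 higher (3.21% and 0.745% of all genes) and DESeq2 10 lower and 1 higher (3.45% and 1.14%). These calls needed the block. With genotype as the only term in the same edgeR test, 0 guidance genes were lower (0% of all genes) and 0 higher (0.0389%). There 2 had an unadjusted p under 0.05, and how many of all genes did was not counted. Without mutant 1, the library that stood apart, the block could not be kept and 1 mutant was left. The median log2 fold change of guidance genes was then -0.0758. Subtracting an evenly spread background from mutant 1 left all 11 and Ephb1 past the threshold. Because it takes counts only from a mutant, it could work against the 11 lower calls mainly through the scaling of libraries. It is therefore a weak check of those calls.

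**Figure D1:**
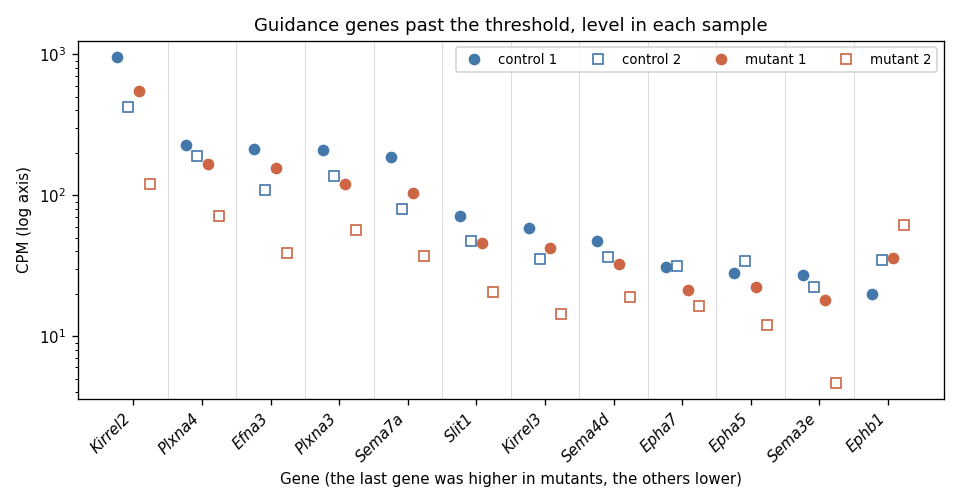
Level of each guidance gene that passed the test, in CPM on a log axis, with 1 point per sample (filled circles for experimental group 1, open squares for experimental group 2, blue for controls, orange for mutants). Mutant 2 has the lowest point for each of the 11 lower genes and the highest point for Ephb1, and mutant 1 lies between the controls for Kirrel2, Kirrel3, Sema7a and Efna3.

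**Figure D2:**
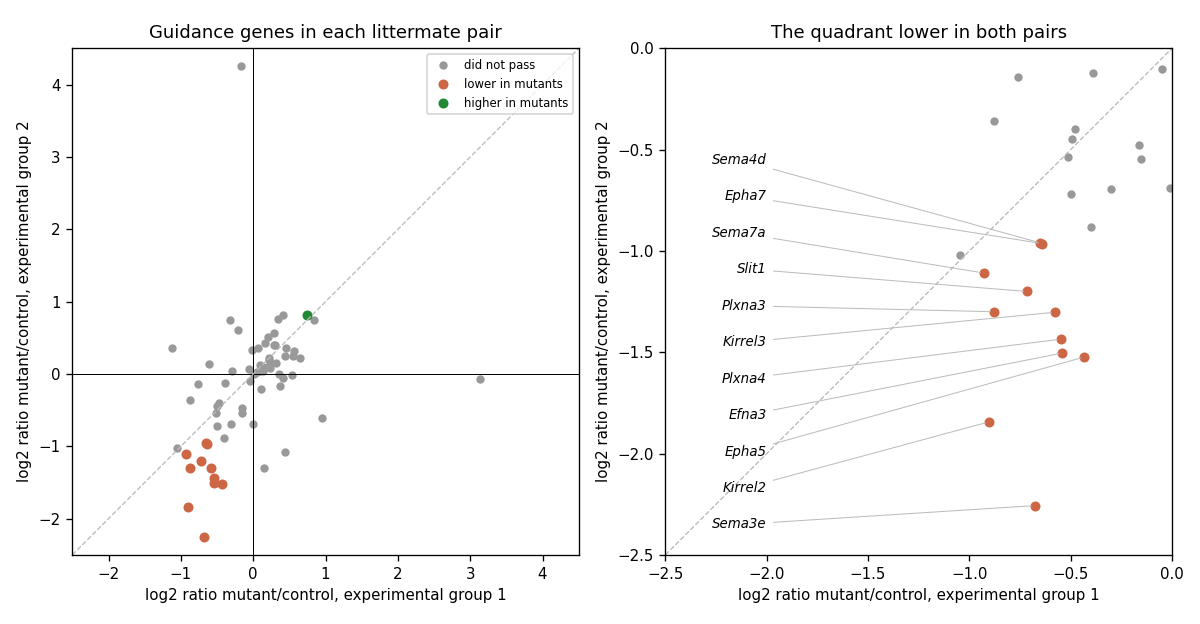
Log2 ratio of mutant to control for the 68 tested guidance genes in experimental group 1 (horizontal) and experimental group 2 (vertical), 1 point per gene and 1 mouse per genotype in each ratio, with the quadrant that is lower in both enlarged at the right. All 11 lower genes lie under the dashed line of equal ratios, with ratios down to -0.93 in group 1 and -2.26 in group 2. The point at the top is Slit3, which had 0 counts in control 2.

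Kirrel2 and Kirrel3 fell together. Kirrel2, on chromosome 7 at 30447534 to 30457690 (mm10, as are all positions here), was the most abundant guidance gene per exon length in controls, with a mean of 176 RPKM (CPM divided by exon length in kb). Its level was 959 and 426 CPM in controls and 547 and 120.1 CPM in mutants. Mutants were lower within each experimental group, but mutant 1 exceeded control 2. Its log2 fold change was -1.37 (SE 0.29, edgeR adjusted p = 0.000342). Kirrel3, on chromosome 9 at 34485894 to 35036716, is expressed by olfactory axons in a pattern complementary to that of Kirrel2. It was at 58.8 and 35.3 CPM in controls and 42.0 and 14.4 CPM in mutants, with the same overlap between mutant 1 and control 2, and its log2 fold change was -0.93 (SE 0.22, edgeR adjusted p = 0.00195). Kirrel, the remaining family member, missed the threshold (edgeR adjusted p = 0.0997) with a log2 fold change of -0.47 and an SE of 0.18. Levels of the 3 Kirrel genes also differed between experimental groups, each being lower in group 2 at the threshold. Kirrel2 did not pass when no filter on low counts was applied.

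Of the 20 semaphorins, all tested, 3 were lower (15%, beside 4.3% of all tested genes) and 0 higher (beside 1.28%), and the median log2 fold change was 0.12. The lower ones belong to classes 3, 4 and 7. Sema7a, a membrane-anchored semaphorin that in other neurons promotes axon growth and acts through plexin C1 and integrins, had 186 and 79.5 CPM in controls and 104 and 37.3 CPM in mutants. Mutant 1 again exceeded control 2, whereas within experimental groups the log2 ratios were close, at -0.93 and -1.11. Its log2 fold change of -1.02 (SE 0.18) had the smallest adjusted p of all guidance genes (edgeR adjusted p = 5.63e-06). Sema3e, a secreted ligand of plexin D1, was at 27.2 and 22.3 CPM in controls and 18.1 and 4.65 CPM in mutants. Groups did not overlap, and mutant 2 was far below the other samples. The fitted log2 fold change, -1.44 (SE 0.37, edgeR adjusted p = 0.00637), was the largest decrease among guidance genes, but it rested on mutant 2. The log2 ratio was -0.68 in experimental group 1, where genes such as Sema7a (-0.93) and Kirrel2 (-0.90) had ratios further below 0, and -2.26 in experimental group 2, and without mutant 2 the log2 fold change was -0.51 with genotype as the only term. Sema4d, a transmembrane ligand of plexin B1, was at 47.6 and 36.7 CPM in controls and 32.3 and 19.1 CPM in mutants, without overlap (log2 fold change -0.80, SE 0.21, edgeR adjusted p = 0.00469). Sema3e did not pass in edgeR's quasi-likelihood test and Sema4d did not pass in DESeq2.

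Sema3a and Sema3f, the secreted repellents best known for sorting olfactory axons, did not pass. Sema3a was at 20.4 and 38.1 CPM in controls and 25.3 and 45.03 CPM in mutants, and its log2 fold change was 0.22 (SE 0.21, edgeR adjusted p = 0.699). These values separate by experimental group rather than genotype, and Sema3a was higher in group 2 at the threshold. Sema3f was at 99.0 and 84.0 CPM in controls and 123.1 and 91.6 CPM in mutants (log2 fold change 0.16, SE 0.18, edgeR adjusted p = 0.755), and its groups overlapped. The other 15 semaphorins ranged from -0.64 for Sema6c to 0.80 for Sema3c, and 6 of the 7 class 3 genes had a positive log2 fold change, Sema3e being the exception.

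**Figure D3:**
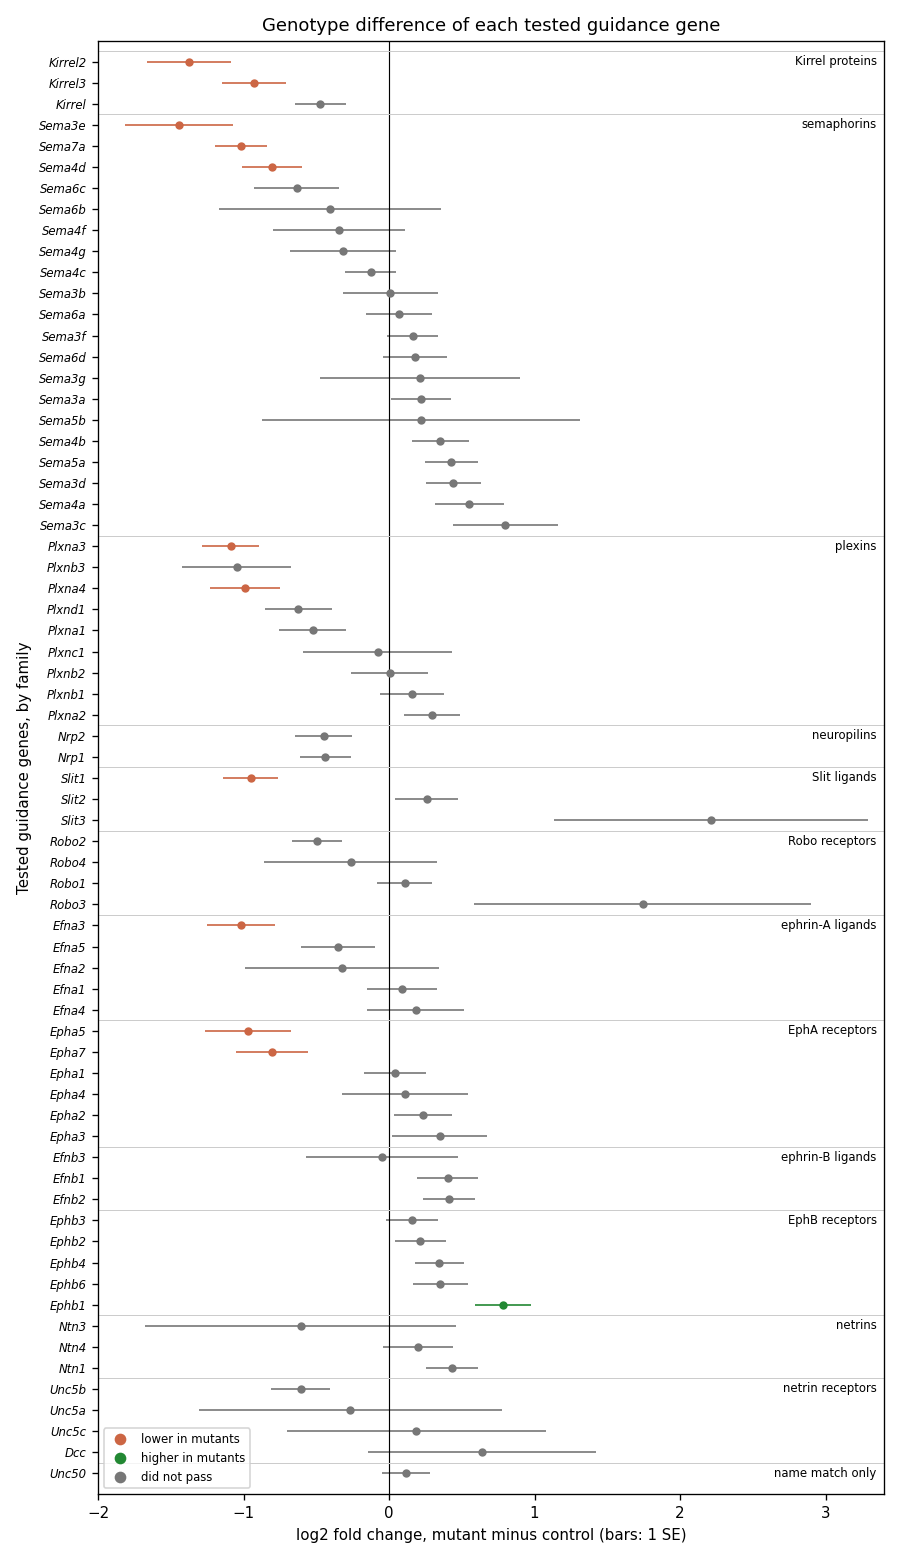
Log2 fold change of each of the 68 tested guidance genes, mutant minus control, from the model with experimental group as block, ordered by family. Points are the fitted values and bars 1 SE. Lower genes (orange) occur in the Kirrel, semaphorin, plexin, Slit, ephrin-A and EphA families, and the only higher gene (green) is Ephb1. Wide bars belong to genes with few counts, such as Slit3 and Robo3.

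Of the 9 plexins, all tested, 2 were lower (22.2%) and 0 higher, beside 4.3% and 1.28% of all tested genes. Both lower ones are among the 4 of class A. Plxna3, on chromosome X at 74329066 to 74344689, encodes a receptor component for class 3 semaphorins bound to neuropilins. It was at 209 and 137 CPM in controls and 121 and 56.4 CPM in mutants. Both mutants lay below both controls. The log2 fold change was -1.09 (SE 0.19, edgeR adjusted p = 9.44e-06). Plxna4, on chromosome 6 at 32144268 to 32588192, which pairs with neuropilin 1 in Sema3a signalling, was at 227 and 191 CPM in controls and 165 and 71.5 CPM in mutants. Groups did not overlap here either (log2 fold change -0.99, SE 0.24, edgeR adjusted p = 0.00229). An antisense transcript, Plxna4os3, shares 0.78% of the exon bases of Plxna4. Plxna1 was at 406.5 and 306 CPM in controls and 303 and 214 CPM in mutants. Its levels in control 2 and mutant 1 were nearly equal, and it did not pass (log2 fold change -0.53, SE 0.23, edgeR adjusted p = 0.189), although it passed in DESeq2. Plxna2 had a positive log2 fold change of 0.30.

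Outside class A no plexin passed. Plxnb2, at 97.4 RPKM in controls and 101 in mutants the most abundant plexin per exon length, had a log2 fold change of 0.00 (SE 0.26). It was at 836 and 668 CPM in controls and 859 and 708 CPM in mutants. Plxnb3, named after its values were seen, was at 25.0 and 6.17 CPM in controls and 12.9 and 3.03 CPM in mutants. Its log2 fold change of -1.05 (edgeR adjusted p = 0.0795, SE 0.37) was close in size to that of Plxna3 without passing. The receptors of the 3 lower semaphorins, also chosen for naming after their values were seen, did not pass either. Plxnd1, the receptor of Sema3e, had a log2 fold change of -0.62 (edgeR adjusted p = 0.101, SE 0.23), Plxnb1, the receptor of Sema4d, 0.16 (SE 0.22), and Plxnc1, the receptor of Sema7a, -0.08 (SE 0.51) at a level of 5.70 to 6.08 CPM in all 4 samples. The median log2 fold change of the 9 plexins was -0.53.

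Both neuropilins had negative log2 fold changes without passing. Nrp1, the co-receptor of Sema3a, was at 113 and 98.6 CPM in controls and 86.6 and 75.7 CPM in mutants (log2 fold change -0.44, SE 0.17, edgeR adjusted p = 0.137). Nrp2, the co-receptor of Sema3f, was at 113 and 89.6 CPM in controls and 71.1 and 82.4 CPM in mutants (log2 fold change -0.45, SE 0.20, edgeR adjusted p = 0.198). In both genes the mutants lay below the controls, as they did in 10.6% of all tested genes.

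Slit1, on chromosome 19 at 41600257 to 41743665, a secreted repellent for Robo-expressing axons, was at 71.0 and 47.0 CPM in controls and 46.1 and 20.7 CPM in mutants. Control 2 and mutant 1 differed by under 1 CPM, while within each experimental group the mutant was lower. The log2 fold change was -0.95 (SE 0.19, edgeR adjusted p = 9.85e-05). Slit2 had a log2 fold change of 0.26 (SE 0.22) and did not pass. Slit3 was at 3.59 and 0 CPM in controls and 3.39 and 1.75 CPM in mutants, and no fold change is given for it.

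No Robo receptor passed among 4. Robo2, the receptor that guides olfactory axons along the dorsal to ventral axis of the bulb, was at 78.2 and 78.4 CPM in controls and 67.7 and 49.1 CPM in mutants. Both mutants lay below both controls, and the log2 fold change was -0.49 (SE 0.17, edgeR adjusted p = 0.0716). Robo1, per exon length the most abundant Robo gene, was at 115 and 164 CPM in controls and 131 and 181 CPM in mutants. It followed experimental group and not genotype (log2 fold change 0.11, SE 0.19, edgeR adjusted p = 0.881), and was higher in group 2 at the threshold.

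Among 5 ephrin-A ligands 1 was lower (20%), and among 6 tested EphA receptors 2 were lower (33.3%), beside 4.3% of all tested genes. Efna3, on chromosome 3 at 89313899 to 89322965, a lipid-anchored ephrin, was at 211 and 109 CPM in controls and 155 and 39.0 CPM in mutants. Mutant 1 exceeded control 2. The log2 fold change was -1.02 (SE 0.24, edgeR adjusted p = 0.00139), and 14.1% of its exon bases are shared with Gm15998 on the opposite strand, whose reads cannot be told apart where counting does not use strand. Efna5, the ephrin-A ligand of Epha5 with a known role in olfactory axon sorting, did not pass, with levels of 18.7 and 33.0 CPM in controls and 17.9 and 22.9 CPM in mutants (log2 fold change -0.35, SE 0.26, edgeR adjusted p = 0.582). The remaining 3 ephrin-A genes ranged from -0.32 to 0.18 and did not pass.

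Epha5, on chromosome 5 at 84054761 to 84417382, an EphA receptor found on sensory axons, was at 28.3 and 34.4 CPM in controls and 22.4 and 12.1 CPM in mutants. Epha7, on chromosome 4 at 28813131 to 28967499, was at 31.2 and 31.6 CPM in controls and 21.3 and 16.4 CPM in mutants. Neither gene's groups overlapped, and the controls of Epha7 were almost equal. Their log2 fold changes were -0.97 (SE 0.30) and -0.80 (SE 0.25), with the largest adjusted p-values of the 11 lower genes (edgeR adjusted p = 0.0293 and 0.0285). Both lost their calls in the quasi-likelihood test, in DESeq2 and without the filter on low counts, and Epha5 also with libraries thinned to equal depth. The other 4 tested EphA receptors, led per exon length in controls by Epha1, ranged from 0.04 to 0.35 and did not pass. Epha6, Epha8 and Epha10 were too low to test.

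Of the 5 EphB receptors, 1 was higher (20%, beside 1.28% of all tested genes) and 0 were lower (beside 4.3%). All 5 had positive log2 fold changes, from 0.16 to 0.78 with a median of 0.35, beside a median of 0.08 for the 6 tested EphA receptors, and the difference between these families was not tested. Ephb1, on chromosome 9 at 101922128 to 102354693, a receptor for ephrin-B known for guiding retinal axons at the optic chiasm, was at 20.0 and 34.5 CPM in controls and 35.9 and 61.3 CPM in mutants. Control 2 and mutant 1 were nearly equal, and the log2 ratios within the experimental groups were 0.75 and 0.81. The log2 fold change was 0.78 (SE 0.19, edgeR adjusted p = 0.00253), and 2.17% of the exon bases of Ephb1 are shared with Gm26846 on the opposite strand. Ephb4, per exon length the most abundant EphB gene, had 0.35 (SE 0.17, edgeR adjusted p = 0.28). Ephrin-B ligands did not pass either, with 0.40 (SE 0.21) for Efnb1, 0.41 (SE 0.18) for Efnb2 and -0.05 (SE 0.52) for Efnb3. Of 6 horizontal basal markers 2 also rose, Krt15 and Egfr, and the list summed to 1366 to 1933 CPM in controls and 1833 to 2918 CPM in mutants, and 0 of 5 sustentacular markers passed (1565 to 3961 CPM in controls, 1930 to 5757 CPM in mutants). Their part in the Ephb1 result was not tested.

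Netrins and their receptors gave no call. Unc5b, the most abundant netrin receptor per exon length with 33.6 RPKM in controls, was at 286 and 134 CPM in controls and 216 and 82.9 CPM in mutants. It was lower in the mutant of each experimental group but overlapped between genotypes, and narrowly missed the threshold (log2 fold change -0.61, SE 0.20, edgeR adjusted p = 0.0509). It passed in the quasi-likelihood test, in DESeq2, with more than 1 CPM required in all samples and with thinned libraries. Dcc, the attractive netrin receptor, was at 1.48 to 3.57 CPM (log2 fold change 0.64, SE 0.78). Ntn1 was at 29.8 and 67.8 CPM in controls and 49.9 and 80.0 CPM in mutants, a split by experimental group, and had a log2 value of 0.43 for genotype (SE 0.18, edgeR adjusted p = 0.167). Ntn4 had 0.20 (SE 0.24).

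**Figure D4:**
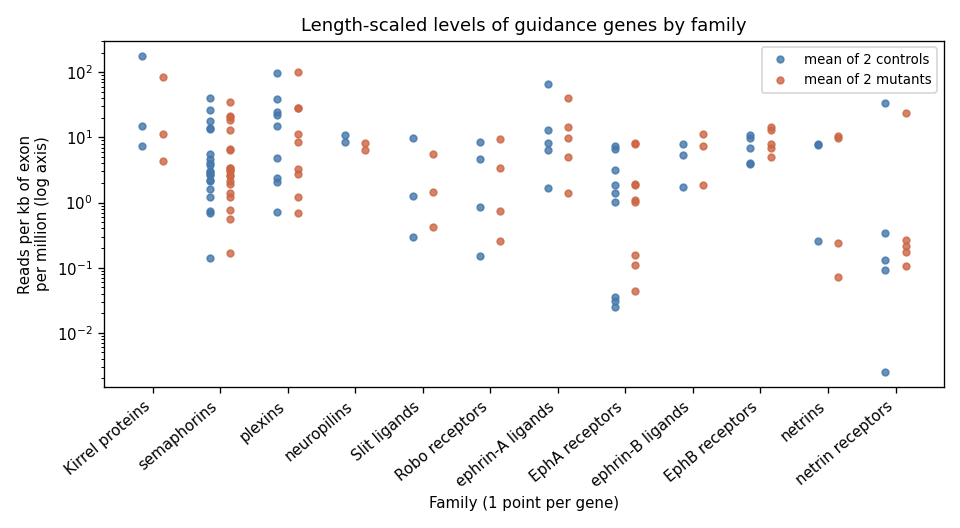
Length-scaled level of each guidance gene, in RPKM (CPM per kb of exon) on a log axis, by family, with 1 point per gene for the mean of the 2 controls (blue) and of the 2 mutants (orange). Kirrel2 is the highest point in controls at 176, and Dcc lies low at 0.131. The mean for Ntn5 in controls is 0 and is not drawn, and genes matched by name only are left out.

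Calls fell on both ligands and receptors. Of 34 tested ligands 5 were lower (14.7%), and of 30 tested receptors 4 were lower (13.3%) and 1 higher (3.33%), beside 4.3% lower and 1.28% higher among all tested genes, the Kirrel proteins standing apart because they are their own ligands. Among known partners the calls were split. Slit1 passed and Robo2 did not. Plxna3 and Plxna4 passed while Sema3a, Sema3f, Nrp1 and Nrp2 did not, and Sema3e, Sema4d and Sema7a passed while Plxnd1, Plxnb1 and Plxnc1 did not. Whether partners differed from each other was not tested. Of the ephrin-A ligands and EphA receptors, which bind each other broadly, Efna3, Epha5 and Epha7 passed, and 4 ligands and 4 tested receptors did not.

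Expression relative to mature neuron markers was computed after the data were seen, because those markers fell by a median of 1.35 on the log2 scale (median log2 fold change -1.35), more than the -0.99 of the lower guidance genes. Per 1000 mature marker counts, Kirrel2 had 56.0 and 56.7 counts in controls and 54.2 and 54.4 in mutants. It thus tracked these markers closely in all 4 samples. Plxna3 had 12.2 and 18.3 in controls 1 and 2 and 12.0 and 25.6 in mutants 1 and 2, and Plxna4 had 13.2 and 25.4 in controls and 16.4 and 32.4 in mutants. On this measure Plxna3, Plxna4 and every other gene that passed except Sema7a were higher in experimental group 2 than in group 1 for both genotypes. The marker sums used as divisor were lower in group 2 for both genotypes. Omp was the largest part of these sums, with 9434 of 17137 CPM in control 1 and 907 of 2208 CPM in mutant 2. Sema3e was the only lower gene besides Kirrel2 with a ratio under 0 in experimental group 2, at 2.97 in control 2 and 2.11 in mutant 2. Of the 11 lower genes, 1 (Kirrel2) had a ratio below 0 in both experimental groups and 7 had a ratio above 0 in both, with medians of 0.21 and 0.48. The marker sums themselves fell, with log2 ratios of mutant to control of -0.77 and -1.77 in experimental groups 1 and 2. A gene that rose, or fell less than these sums, is therefore higher on this measure by construction. Ephb1, which rose in CPM, went from 1.17 and 4.59 in the controls to 3.57 and 27.8 in the mutants. The ratios carry no test, and the part of mature neuron content in the guidance gene result was not tested. Other marker lists moved less. Of 9 immature neuron markers 2 were lower (2113 to 2689 CPM in controls, 1699 to 2246 in mutants), of 8 ensheathing glia markers 1 was lower (180 to 185 CPM in controls, 130 to 182 in mutants), of 6 fibroblast markers 2 were lower (288 to 939 CPM in controls, 489 to 650 in mutants), and none of 6 endothelial or 7 leukocyte markers passed, with endothelial sums of 21.6 to 44.0 CPM in controls and 33.6 to 41.9 CPM in mutants and leukocyte sums of 570 to 775 CPM and 339 to 804 CPM. No listed marker was at 0 in any sample.

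**Figure D5:**
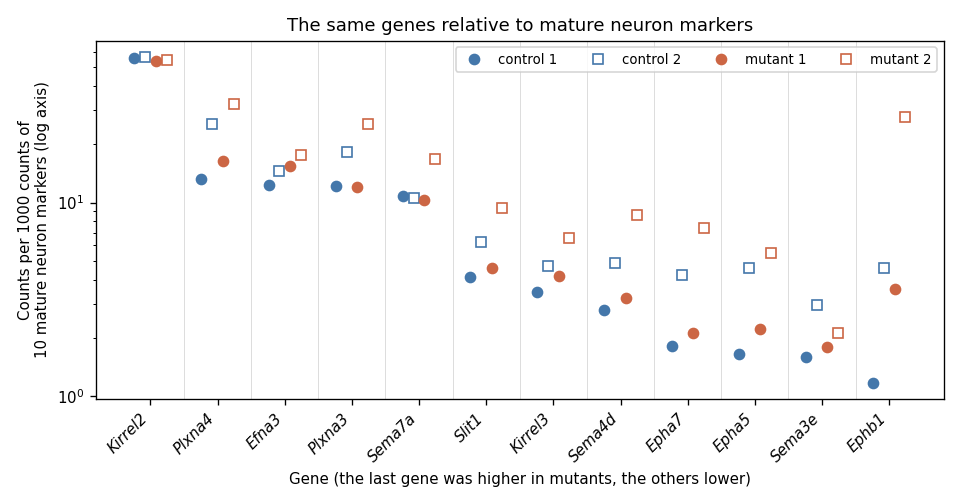
Counts of each guidance gene that passed the test per 1000 counts of 10 mature neuron markers, on a log axis, 1 point per sample with symbols as in the plot of CPM by sample. Kirrel2 lies at 54.2 to 56.7 in all samples, and Ephb1 spans 1.17 to 27.8. For most of the lower genes mutant 2 is now the highest point.

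Guidance genes also differed between the experimental groups, as did many of all 15438 tested genes (2156 lower and 2729 higher in group 2). Whether guidance genes did so more often was not tested. The groups differ in parents, age, sex and treatment according to the series design, while sample preparation and sequencing were matched only within a group. These sources cannot be told apart. Of the 68, 25 passed for experimental group 2 against 1, with 14 lower in group 2 (14% of all tested genes) and 11 higher (17.7%). Kirrel2, Kirrel3, Sema3e, Sema4d, Sema7a, Plxna3, Plxna4, Slit1 and Efna3, 9 of the 11 genes that were lower in mutants, were also lower in group 2, whereas Epha5 and Epha7 did not pass. Ephb1 was higher in group 2. Both mature marker sums in group 2 were below those of the same genotype in group 1.

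Promoter sequence is shown for Sema7a and Plxna3, which had the smallest adjusted p-values, and for Sema3e, which had the largest fitted decrease. Each is the 250 bases before the RefSeq gene start (GRCm38.p6), on the strand of the gene, with CpG dinucleotides in capitals.
Sema7a, chr9:57939862-57940111, plus strand: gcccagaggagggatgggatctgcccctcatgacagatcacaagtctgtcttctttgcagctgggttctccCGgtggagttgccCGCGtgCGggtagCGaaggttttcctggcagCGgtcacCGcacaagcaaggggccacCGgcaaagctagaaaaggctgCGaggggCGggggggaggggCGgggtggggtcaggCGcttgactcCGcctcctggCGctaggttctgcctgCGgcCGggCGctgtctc
Plxna3, chrX:74328816-74329065, plus strand: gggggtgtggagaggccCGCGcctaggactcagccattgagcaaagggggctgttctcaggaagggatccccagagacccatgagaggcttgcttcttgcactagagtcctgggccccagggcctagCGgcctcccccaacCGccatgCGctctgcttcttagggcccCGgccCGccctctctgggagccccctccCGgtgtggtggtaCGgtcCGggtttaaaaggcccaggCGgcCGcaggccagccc
Sema3e, chr5:14025026-14025275, plus strand: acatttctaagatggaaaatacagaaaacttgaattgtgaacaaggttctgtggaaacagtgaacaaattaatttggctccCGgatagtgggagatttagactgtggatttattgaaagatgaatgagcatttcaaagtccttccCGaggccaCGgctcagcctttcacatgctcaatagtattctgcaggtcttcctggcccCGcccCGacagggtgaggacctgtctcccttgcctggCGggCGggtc
The Sema7a window holds 17 CpG and is 66.4% G and C, the Plxna3 window 12 CpG and 68.0%, and the Sema3e window 7 CpG and 48.0%. Promoter entries were found for 63 of the guidance genes (79 windows) and for 8 of the 11 lower genes (12 windows). The median window held 14.5 CpG for the lower genes, 15 for all guidance genes and 6 for all 32851 windows. The homeodomain core TAATTA was searched on both strands and occurred in 1 of the 12 windows, that of Epha5, in 3.8% of guidance gene windows and in 4.84% of all windows. A match or its absence in these windows says nothing about binding.

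A list of 49 further genes of the pathway, adhesion co-receptors and intracellular partners of guidance receptors, held 48 that were measured and tested. Of these, 6 were lower and 0 higher, beside 4.3% and 1.28% of all tested genes, and the median log2 fold change was -0.05. Pak3, a serine and threonine kinase, was at 73.9 and 69.3 CPM in controls and 38.7 and 34.3 CPM in mutants. Its groups were well separated, and its log2 fold change was -1.03 (SE 0.17, edgeR adjusted p = 7.00e-07). Ncam2, an adhesion molecule of olfactory axons, was at 72.3 and 112.8 CPM in controls and 53.5 and 48.1 CPM in mutants (log2 fold change -0.89, SE 0.19, edgeR adjusted p = 0.000565). Pcdh10, a non-clustered protocadherin, fell by 1.09 on the log2 scale, the Robo partner Srgap1 by 0.72, the co-receptor of neuropilin 1 L1cam by 0.69 and B3gnt2, the glycosyltransferase that builds lactosamine on olfactory axons, by 0.60. For all 6 genes both mutants lay below both controls, as in 10.6% of all tested genes. Pcdh10 did not pass in the quasi-likelihood test, and Srgap1 and L1cam did not pass in DESeq2. Nrcam, an adhesion molecule of the L1 family named after its values were seen, was at 151 and 173.5 CPM in controls and 269 and 250.04 CPM in mutants. Both mutants were above both controls, and it missed the threshold in the main test (log2 fold change 0.63, SE 0.21, edgeR adjusted p = 0.0531) but passed in the quasi-likelihood test and in DESeq2. Ncam1, also named after its values were seen, did the same in the other direction, with both mutants below both controls (log2 fold change -0.60, SE 0.25, edgeR adjusted p = 0.166). It was at 674 and 585 CPM in controls and 503 and 367 CPM in mutants.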

How the data were processed

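RNA-seq counts of 4 sorted samples were used, 1 mouse each, grouped by the labels into 2 control and 2 mutant samples. The values deposited by the authors are raw counts, which HTSeq gave for every gene symbol from single-end reads of ribosome-depleted RNA. The processing notes of the submitters name Bowtie2 2.0.6 and TopHat2 2.0.7 with mm10. The 5 tally lines per file were left out, whereas the printed code of the study kept them in library sizes, filter and test, so that the CPM filter here is less strict in reads and more genes were tested. Whether counting used strand is not given in the sources used here, and reads with several alignments were set aside.

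The filter (more than 1 CPM in at least 2 samples), the trimmed mean of M-values (TMM) factors, the likelihood-ratio test and both model terms, genotype and experimental group, follow the study's methods apart from those lines and were run in edgeR 4.0.16 (R 4.3.3). SE are Wald errors. Ratios within an experimental group are differences of log2 CPM with a prior count of 2, without a test. The labels pair the samples, as mice of an experimental group share parents. Across 15438 genes, which are not independent replicates, departures from the genotype mean correlated between samples of the same number (r = 0.522). With 2 mice per genotype no permutation of labels could reach the threshold.

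Symbols were matched to GENCODE annotation of mm10 for exon lengths and positions (98.13% matched). Every pair of libraries differed by more than sampling noise. The scripts were tested on simulated counts. The members and lists were chosen with earlier results of these data known. Named genes are those that passed, the most abundant member per exon length of each family, and a panel known for olfactory axon sorting. Other members were named after their values were seen. Alternatives were the quasi-likelihood test, DESeq2 1.42.0, no replicate block, relative log expression (RLE) factors, other filters, thinned libraries, tally lines kept, a background of 1.79 counts per kb subtracted from mutant 1, and samples left out.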

Additional observations from a re-analysis of the deposited data

Results flagged for a closer look

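Ntn4, a netrin of basement membranes, had a log2 ratio of mutant to control of -0.21 in experimental group 1 but 0.60 in experimental group 2. Its levels were 29.3 and 29.2 CPM in controls and 27.1 and 45.03 CPM in mutants, so that mutant 2 stood above the other samples. Plxnb2 had log2 ratios of -0.056 and 0.065. The median log2 ratio over the tested EphA receptors was 0.17 and -0.063. In these results the mutant lay on opposite sides of its control in the 2 experimental groups, and the difference was not tested, since each ratio rests on 1 mouse per genotype. They are not the only such results, as other members also split, some by more, such as Sema4g with 0.43 and -1.08. Reads outside annotated genes, which entered no comparison, were 39.41% of the uniquely aligned reads of mutant 1, more than the 23.76% and 24.88% of the controls.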

How the results depend on the processing

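Beside 11 lower genes in the main test, 9 were lower in the quasi-likelihood test and 10 in DESeq2 (8 of the 11 in each), 8 without a filter, 12 with more than 1 CPM in all samples, and 11 each with RLE factors, tally lines kept, thinned libraries (10 of the 11) or background subtracted. Ephb1 was the only higher gene in each. Shares of all tested genes were counted only for the main test, the quasi-likelihood test, DESeq2 and the fit without the block. Whether changes under the other settings were particular to guidance genes was not tested. Without the replicate block, 0 were lower and 0 higher. Leaving out each sample in turn, with genotype as the only term because the block could not be fitted, gave 0 to 0 lower genes and 0 to 1 higher gene (Slit3, without control 1), and the lone sample was assumed to vary like the other genotype. Calls in these fits were not set beside shares of all tested genes, so they decide nothing particular to guidance genes. The median log2 fold change of 0.05 became 0.134 without a filter and 0.0273 with background subtracted, was -0.0508 without control 1, 0.0362 without control 2, -0.0758 without mutant 1 and 0.00833 without mutant 2, and was 0.00157 without experimental group 1 and 0.0333 without experimental group 2 (replicates 1 and 2). It was 0.04 without Unc50 and Unc5cl, an alternative added after the data were seen.

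Turns of direction were looked for only in genes that passed, the most abundant gene of each family and the panel. Among these, directions turned only in genes that had not passed. Without control 1 these were Ntn1 (-0.10), Robo1 (-0.11), Sema3a (-0.15) and Unc5b (0.10), without control 2 Efna5 (0.11) and Plxnb2 (-0.12), without mutant 1 Plxnb2 (-0.12) and Sema3f (-0.031), and without mutant 2 Ntn1 (-0.026), Ntn4 (-0.17), Robo1 (-0.15) and Sema3a (-0.27). Plxnb2 was at -0.00102 without the block. Without experimental group 2, Ntn4 (-0.21) and Plxnb2 (-0.056) turned as well. The cause was not tested. The count of guidance genes that differed between experimental groups was 25 and ran from 21 to 27. Shares of all tested genes were counted only for the main test. Genes under about 1 CPM could not be judged at this depth.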

Other observations

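Members too low to test were Epha6, Epha8, Epha10, Ntn5, Unc5cl and Unc5d. Unc5d, a netrin receptor, was at 0 and 0.0468 CPM in controls and 2.80 and 0.404 CPM in mutants, and Epha8 at 0 and 0.234 CPM in controls and 1.49 and 0 CPM in mutants. For these and for Epha6, Epha10, Ntn5 and Unc5cl the highest value was in mutant 1, the sample with the most reads outside annotated genes. Unc50 and Unc5cl match the symbol pattern by name only, since Unc50 is a Golgi protein and Unc5cl an intracellular death domain protein. Unc50 was at 59.0 and 65.1 CPM in controls and 69.2 and 70.8 CPM in mutants, and at 0.12 on the log2 scale (edgeR adjusted p = 0.832, SE 0.16) it did not pass.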
